A study of Bos taurus with 12 samples.

Results

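Glutathione, the main small thiol of the cell, is made by glutamate-cysteine ligase (catalytic subunit GCLC, modifier subunit GCLM) and then glutathione synthetase (GSS). Glutathione peroxidases (GPX1, GPX3, GPX4) use it to reduce peroxides, and glutathione reductase (GSR) regenerates it with NADPH. Gamma-glutamyl enzymes at the cell surface (GGT1, GGT5) start its breakdown, and the cystine transporter SLC7A11 supplies its cysteine. In the lactating mammary gland, gamma-glutamyl transferase is also known as a route by which blood glutathione delivers amino acids to the milk-producing cells.

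The 10 genes just named were followed in mammary gland biopsies of lactating Holstein cows, before and during feed restriction. They were selected with the difference between the sampling periods already known, so their differences are given as descriptions, and the calls of the fit over all probes are counted for them with nothing read from the count. On the arrays, 9 of the 10 genes had a probe, 18 probes in all, out of 12787 genes with a probe. SLC7A11 had none. Testing was limited to probes that all arrays of a group, CONT or REST, showed well above background. That filter was passed by 7 of the 10 genes (12 probes), among 7932 genes in the series, while GCLC and GPX3 did not pass it.

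The CONT group was sampled on day 0, when the cows ate a lactation diet freely. The REST group was sampled on day 6 of a feed allowance that met 50% of net energy requirements for lactation. The same 6 multiparous, midlactation cows gave both biopsies, from alternate rear glands of the udder, on 1 array each (12 arrays, 6 per group). There was no group kept on full feed until day 6, so restriction cannot be told apart from the passage of time, from the other gland or from an earlier biopsy.

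Values are normalized signals in log2 units relative to the 75th percentile of the array, so 0 is that percentile and a difference of 1 is a doubling. Levels were not compared between genes, because probes differ in brightness for the same amount of RNA. Cows are numbered 1 to 6, and slide 1 carried both arrays of cows 1 and 2, slide 2 those of cows 3 and 4, and slide 3 those of cows 5 and 6. Slide 3 was dimmer, with a 75th percentile of 73.2 to 117 intensity units against 252 to 390.0 on the others, and 41.9 to 48.0% of spots well above background against 61.8 to 67.9%. The tissue label was checked against luminal epithelial genes: 7 of 8 had a probe, and all 7, among them CSN1S1, LALBA and ELF5, were well above background on all 12 arrays.

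Among the genes of synthesis, GSS stood lower in REST in every cow, while the modifier subunit GCLM had no common direction and the catalytic subunit GCLC was not above background. GSS, which joins glycine to gamma-glutamylcysteine in the last step, had normalized signals of 1.62, 1.49, 1.53, 2.29, 1.41 and 2.54 on the CONT arrays of cows 1 to 6. On the REST arrays of the same cows it had -0.23, -0.19, 0.10, 0.13, 0.08 and 0.40. All 6 REST arrays lay below all 6 CONT arrays, and the probe (transcript NM_001015630) was well above background on all 12.

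The mean GSS signal was 1.81 ± 0.48 in CONT and 0.05 ± 0.23 in REST (SD, n = 6), a mean change within cows of -1.77 ± 0.35, or 3.40-fold lower. The change was -1.32 in cow 5, the smallest, and -2.16 in cow 4, the largest. It was -1.77, -1.80 and -1.74 within slides 1, 2 and 3, so the dim slide gave a like value. Of 7932 tested genes, each shown by its brightest tested probe, GSS held rank 10 counted from the lowest change. A lower REST group without overlap was found for 1.66% of tested genes.

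GSS also varied among cows before restriction. In CONT, cows 4 and 6 stood apart at 2.29 and 2.54, above the other cows, which lay between 1.41 and 1.62. The same cows had the largest decreases, and in REST the 6 cows lay closer together, from -0.23 to 0.40. The SD of GSS over the CONT arrays, 0.48, compared with a median of 0.24 over all tested genes.

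A second GSS probe for the same transcript was dim. In CONT it was well above background on 5 of 6 arrays, in REST on 3 of 6, and it was not tested. Its values were lower in REST in 6 of 6 cows, by -2.82 to -0.47, with a mean of -1.63 ± 0.92. Not all of these arrays were clearly above background, so nothing is read from the size. Its groups overlapped, since the CONT value of cow 5, -3.35, lay below the REST value of cow 3, -3.16.

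GCLM, which raises the efficiency of the ligase, ranged in CONT from -1.84 in cow 1 to -1.09 in cow 6, with a median of -1.52. In REST it ranged from -1.70 to -1.31, with a median of -1.61. It was lower in 3 of 6 cows, and the mean change was -0.06 ± 0.31. GCLC, whose reaction limits the rate of glutathione synthesis, was represented by 1 probe that was well above background on 0 of 12 arrays, so no difference is given for it.

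**Figure D1:**
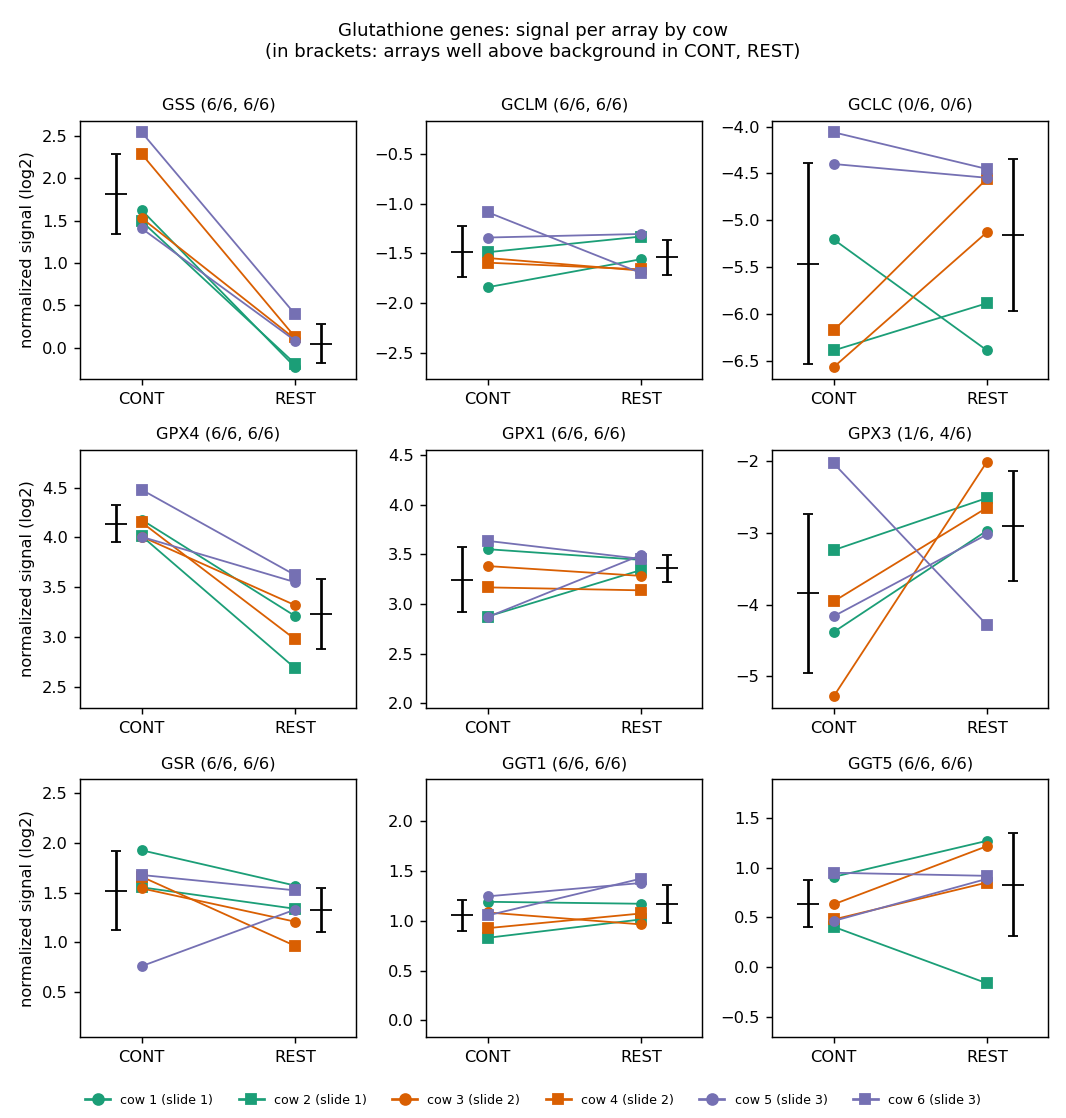
Normalized signal (log2, relative to the 75th percentile of the array) of the 9 glutathione genes with a probe, each by its shown probe, in CONT and REST. Lines join the arrays of a cow, colours give the slide, black bars show the mean ± SD of 6 arrays, and vertical scales differ between panels. GSS and GPX4 go down in all 6 cows with no overlap between the groups, while the lines of GCLM, GPX1, GSR, GGT1 and GGT5 cross or stay level, and GCLC and GPX3 lie near background.

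Among the peroxidases, GPX4 was the member with a lower signal in every cow, GPX1 was nearly level, and GPX3 was too dim for a tested difference. GPX4 reduces lipid hydroperoxides within membranes and is known as the enzyme that guards cells from ferroptosis. Its shown probe (NM_174770) read 4.18, 4.01, 4.01, 4.15, 4.01 and 4.48 in CONT for cows 1 to 6. In REST it read 3.21, 2.68, 3.32, 2.98, 3.55 and 3.62.

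No REST array reached the lowest CONT array, and the CONT arrays were close together (SD 0.18) while the REST arrays were more spread (SD 0.35). The mean change of GPX4 was -0.91 ± 0.32 (n = 6), or 1.88-fold lower, at rank 54 from the lowest change of 7932 genes. The decrease differed in size between slides, with -1.15 on slide 1, -0.93 on slide 2 and -0.66 on the dim slide 3. It was largest in cow 2, at -1.33, and smallest in cow 5, at -0.46.

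The second GPX4 probe, annotated to another transcript of the gene (NM_001346431), gave almost the same pattern. It was lower in 6 of 6 cows by -1.29 to -0.49, with a mean of -0.86 ± 0.31, and its groups did not overlap. Cow 5 had the smallest decrease and cow 2 the largest with both GPX4 probes. Cow 5 had the smallest decrease of GSS as well, whereas the largest decrease of GSS was in cow 4.

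GPX1, the abundant cytosolic peroxidase, ranged from 2.87 to 3.64 in CONT (median 3.28) and from 3.14 to 3.49 in REST (median 3.39). It was lower in 4 of 6 cows although the mean change was 0.11 ± 0.34, because cows 2 and 5, the lowest in CONT, were higher by 0.47 and 0.62. Its second probe had a mean change of 0.02 ± 0.20 and was lower in 3 of 6 cows.

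GPX3, the secreted peroxidase of plasma and milk, had 4 probes, none of which passed the filter on dim signal. Its brightest probe exceeded background clearly on 1 of 6 arrays in CONT and 4 of 6 in REST. The CONT values were -4.38, -3.24, -5.28, -3.96, -4.16 and -2.03 for cows 1 to 6, and the REST values were -2.97, -2.52, -2.01, -2.65, -3.02 and -4.29. The REST value was higher in cows 1 to 5 and lower in cow 6, but most CONT values were not clearly above background, so no size is given.

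The 3 other GPX3 probes were well above background on no CONT array, and on 0, 2 and 3 of 6 REST arrays. For the last of these, the REST mean of -4.05 did not exceed the floor that the dimmest measurable probes set in CONT, so no fold is given. Without slide 3, and so without cow 6, and with the cow as a block, GPX3 passed the filter through the REST arrays alone and was called higher. That setting was chosen after seeing the data, and since the filter was met only in the group with the higher signal, nothing is read from the call.

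GSR, which recycles oxidized glutathione, was lower in 5 of 6 cows, with cow 5 as the exception at 0.57. In CONT it read 1.93, 1.55, 1.54, 1.66, 0.76 and 1.68, and in REST 1.57, 1.34, 1.21, 0.96, 1.33 and 1.52. The mean change was -0.20 ± 0.42, and within slides it was -0.29, -0.52 and 0.21. The CONT value of cow 5 lay well under the other CONT values with both GSR probes, and the second probe had a mean change of -0.13 ± 0.54.

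Of the enzymes of breakdown, neither GGT1 nor GGT5 was called over all 6 cows without a block, and both had slightly higher means in REST. GGT1, which splits extracellular glutathione, ranged from 0.83 to 1.25 in CONT and from 0.96 to 1.42 in REST. It was higher in 4 of 6 cows, with a mean change of 0.12 ± 0.17.

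GGT5, a related enzyme that also converts leukotriene C4, was read by 3 probes. The shown probe gave 0.91, 0.40, 0.63, 0.48, 0.46 and 0.95 in CONT and 1.27, -0.17, 1.22, 0.85, 0.89 and 0.92 in REST. Cow 2 was the lowest REST array with all 3 probes, and the mean changes over the probes were 0.19 ± 0.42, 0.45 ± 0.30 and 0.21 ± 0.35. Without cow 2, GGT5 was called higher, but not through the shown probe (0.34, limma adjusted p 0.358). The probe with a change of 0.45 was higher in 6 of 6 cows, by 0.06 to 0.79. GGT1 and GGT5 are paralogs, and whether their probes also bind the transcripts of related genes was not tested.

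**Figure D2:**
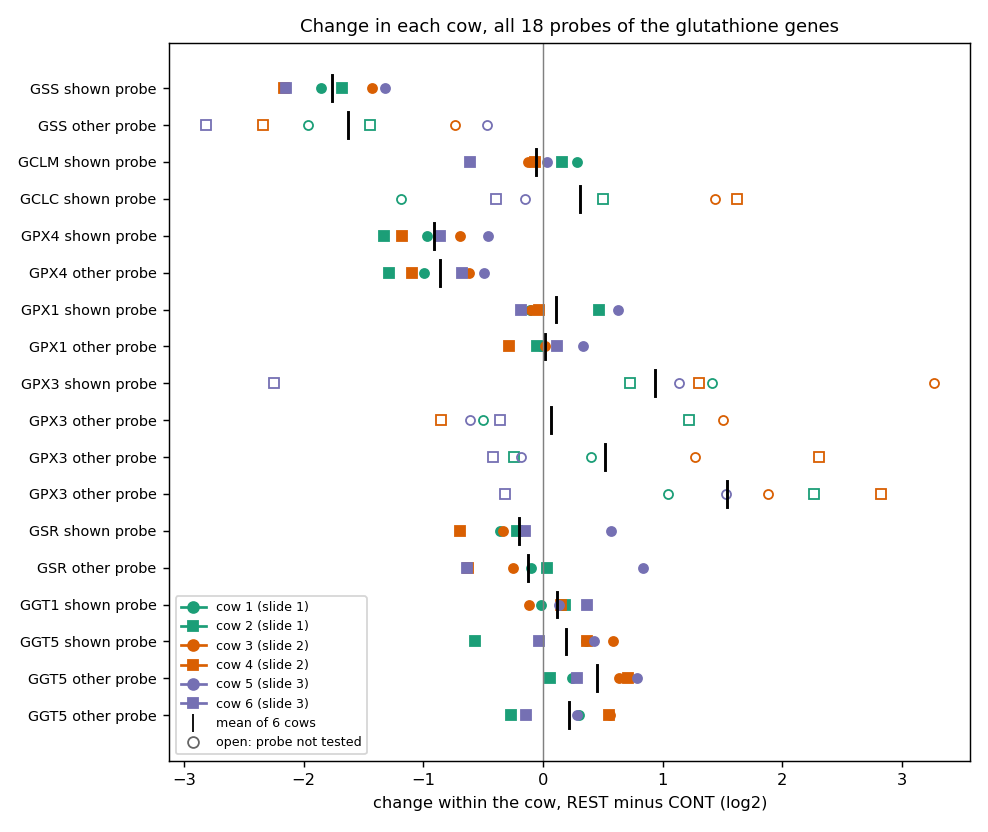
Change within each cow (REST minus CONT, log2) for all 18 probes of the glutathione genes, with colours for slides, black ticks for the mean of 6 cows and open symbols for probes that were too dim to be tested. Both probes of GSS (the second drawn open) and both of GPX4 have all 6 cows below 0, and the open symbols of GPX3 and GCLC spread over more than the tested probes.

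Calls were made over all tested probes with limma at a Benjamini-Hochberg adjusted threshold of 0.1. Of the 7 members that passed the filter, 2 were called, GSS with its 1 tested probe and GPX4 with both, each lower. Over the series, 3.49% of tested genes had a probe called lower and 2.19% a probe called higher, and the members were chosen on this same contrast, so nothing is read from the comparison. With the cow as a block, where every cow is its own control, the shares were 11.5% lower and 9.08% higher. GSS and GPX4 were again called lower and GGT5 was called higher with 1 of its 3 probes.

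GSS and GPX4 were lower in 6 of 6 cows with the shown probe, which was so for 10.8% of tested genes. No member was higher in 6 of 6 cows with its shown probe, against 7.5% of tested genes. Over the main and alternative settings the change lay between -1.86 and -1.39 for GSS and between -1.04 and -0.77 for GPX4. GSS gave its smallest changes after another background correction, normexp, at -1.39 and -1.41. The median change of the 7 tested members was -0.06, and that of all tested genes was -0.01.

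Other cell types of a biopsy were followed with marker lists, because fewer cells of a type and less RNA per cell cannot be told apart in whole tissue. The summed linear signal of 7 luminal epithelial markers was 1916 to 2448 in CONT and 1669 to 2117 in REST, lower in 6 of 6 cows, with a mean log2 change of -0.19. A linear sum follows its brightest probes, here the milk protein genes CSN1S1 (-0.26) and LALBA (-0.20), each lower in 6 of 6 cows. Of the 7 luminal markers 4 had higher means in REST, with a median change of 0.12, among them the keratins KRT8 (0.72, higher in 6 of 6 cows) and KRT18 (0.52, 5 of 6) and the adhesion molecule EPCAM (0.33, 5 of 6). Another tested KRT8 probe changed by -0.14 and was lower in 4 of 6 cows, while a further one changed by 0.67 and was higher in 6 of 6.

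The endothelial sum over 5 markers was higher in 6 of 6 cows (8.43 to 11.4 in CONT, 10.2 to 12.5 in REST), with a median change of 0.13 and 1 of 5 markers lower, and VWF, the clotting factor of endothelial cells, was the marker gene called without a block (0.54, SE 0.13, adjusted p 0.0539). The sum over 4 adipocyte markers was lower in 6 of 6 cows, from 141 to 211 in CONT and from 98.3 to 145 in REST. Of these 4 only 1, the fatty acid carrier FABP4, was well above background on all arrays, and its change of -0.35 was that of the sum (-0.35).

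The acute phase and mastitis sum over 8 genes was higher in 6 of 6 cows, from 514 to 839 in CONT and from 625 to 1220.0 in REST. Of these 8 genes, 4 were well above background on all arrays. LTF, the milk iron binder lactoferrin, was higher in 6 of 6 cows in that list, by a mean of 0.45. The methods of the study enrolled 6 Holstein cows, left a Holstein cow out because of mastitis and ran these arrays in Holstein cows only. The labels name 6 cows here, so by that count the excluded cow would be among them. Which cow it is cannot be told from the labels. The myoepithelial sum (7 genes, 101 to 199.5 in CONT and 91.4 to 185 in REST) was lower in 5 of 6 cows, with a mean log2 change of -0.21. The fibroblast sum (6 genes) was 34.2 to 63.9 in CONT and 26.4 to 73.5 in REST, that of macrophages and leukocytes (8 genes) 8.05 to 10.7 and 8.89 to 11.9, and that of erythrocytes (3 genes) 13.7 to 20.1 and 10.3 to 20.4. The erythrocyte sum was lower in 5 of 6 cows, with a mean log2 change of -0.34, but only 1 of its 3 genes was well above background on all arrays. The ranges of CONT and REST overlapped for all 8 sums.

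With the cow as a block, 12 of 37 tested marker genes were called in place of 1, 7 lower and 5 higher, where calls also rose over all tested genes, from 3.49% to 11.5% lower and from 2.19% to 9.08% higher. Lower were CSN1S1 and LALBA, the contractile genes ACTA2, CNN1 and TAGLN of the myoepithelial list, the collagen gene COL1A1 and FABP4. Higher were KRT8, KRT18, VWF, LTF and the T cell gene CD3E. The part of these cell types in the lower GSS and GPX4 signals was not tested. The markers ADIPOQ, CSN2 and LCN2 had no probe.

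Around the members, 81 further genes of glutathione metabolism were followed by role, chosen for their function. Of these, 69 had a probe and 44 were tested. Without a block 4 were called, all lower (PGD, IDH2, HAGH and CNDP2), and none was called higher (0 of 44), beside 3.49% lower and 2.19% higher over all tested genes, while 12 reached an unadjusted p under 0.05, as did 21.9% of all tested genes. The median change over the 44 genes was 0.02, with 21 lower and 23 higher. With the cow as a block, 9 were called lower and 2 higher, where the shares over all tested genes were 11.5% and 9.08%. When slide 3 was left out as well, 5 of the 81 genes were called lower and 8 higher. Over all probes of that setting, 1621 of 26905 were called lower and 1192 higher. More probes passed the filter there than the 19406 over the 12 arrays. GSTT2, among the 8, passed it through the REST arrays alone, so nothing is read from these counts.

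The enzymes that supply NADPH, which GSR needs to regenerate glutathione, held 2 of the 4 calls. All 3 tested genes of this list of 6 had lower means in REST. PGD, of the pentose phosphate pathway, fell in 6 of 6 cows from 4.28 ± 0.16 to 3.73 ± 0.15 (SD, n = 6), a change of -0.55 (SE 0.11, limma adjusted p 0.0200). The CONT arrays of PGD lay between 4.06 and 4.51 and the REST arrays between 3.58 and 3.97, without overlap, and 5 of 5 probes were called. PGD was not called without cow 4 (-0.51, adjusted p 0.118) or without slide 3 (-0.52, adjusted p 0.126), in a range over all settings from 0.00254 to 0.247.

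IDH2, the mitochondrial isocitrate dehydrogenase that makes NADPH, fell from 0.78 ± 0.25 to 0.13 ± 0.42, a change of -0.65 (SE 0.19, limma adjusted p 0.0952). Both of its tested probes were called and 6 of 6 cows were lower, with cow 4 the lowest REST array at -0.71. The call of the shown probe was lost when any single cow was left out, with changes between -0.75 and -0.52. Through another probe, IDH2 was still called lower without cow 5, without cow 6 and without slide 3. IDH1, its cytosolic counterpart, had the most negative mean among these 44 genes, -0.87 (SE 0.26), and an adjusted p of 0.111.

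IDH1 was lower in 6 of 6 cows but by unequal amounts, with -1.68 on slide 1, -0.76 on slide 2 and -0.17 on slide 3. With the cow as a block it was called (adjusted p 0.0561). Without a block it was called without cow 6 (-0.98, adjusted p 0.0863) and without slide 3 (-1.22, adjusted p 0.0851), and over all settings its adjusted p ran from 0.0236 to 0.409. ME1 and NNT, which also supply NADPH, were not well above background on every array of either group.

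Among glutaredoxins and glyoxalases, which use glutathione to reduce disulfides or to remove methylglyoxal, 1 of 6 tested genes was called and 5 of 6 had lower means. HAGH, the hydrolase that releases glutathione in the last glyoxalase step, fell in 6 of 6 cows from 2.86 ± 0.11 to 2.50 ± 0.12, a change of -0.36 (SE 0.09, limma adjusted p 0.0670). The groups did not overlap, but the call was lost when any 1 cow was left out, with changes between -0.40 and -0.32. GLO1, which acts before HAGH, had a change of -0.27 (SE 0.18), was lower in 6 of 6 cows and was called with the cow as a block (adjusted p 0.0667, in a range over all settings from 0.0667 to 0.886). GLRX5, a mitochondrial glutaredoxin for iron-sulfur clusters, had a change of -0.20 (SE 0.45), and 1 of the tested probes of GLRX was called lower with that block.

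In the gamma-glutamyl cycle, 1 of 6 tested genes was called. CNDP2, the dipeptidase that splits cysteinylglycine, was lower in 6 of 6 cows with its shown probe (-0.37, SE 0.12, limma adjusted p 0.151). Of its 4 tested probes, 1 was called (-0.34, adjusted p 0.0837) and 3 were called with the cow as a block. No probe of CNDP2 was called when any 1 cow was left out, with changes of the shown probe between -0.39 and -0.33. CHAC1, which degrades glutathione inside the cell, had a change of -0.55 (SE 0.45), which rested on cow 6 (-2.85) and was -0.09 without that cow. Its REST arrays were well above background in 4 of 6 cows.

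GGT7, a relative of GGT1, was higher in 6 of 6 cows by 0.08 to 0.64, with a mean of 0.45 (SE 0.15) and an adjusted p of 0.136. It was called higher with the cow as a block (adjusted p 0.0327, in a range over all settings from 0.0185 to 0.764). Its second probe was lower in 6 of 6 cows but did not pass the filter on dim signal, so whether the probes of GGT7 differ in direction cannot be told.

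None of the 9 tested glutathione transferases was called without a block (0 of 9), and their median change was 0.07. GSTM3 had a change of -0.38 (SE 0.25). GSTT1, a theta-class transferase, had a change of 0.36 (SE 0.44) and stood out by its spread between cows. In CONT it ranged from 1.01 in cow 1 to 3.66 in cow 6, and in REST from 1.57 in cow 1 to 3.52 in cow 6, so the same cows were lowest and highest in both periods.

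With the cow as a block, 1 of 4 probes of GSTT1 was called higher, and MGST3, a microsomal transferase, was called lower (-0.25, adjusted p 0.0645). The values of GSTT1 on the dim slide 3 were the highest of each group, so cow and slide cannot be told apart there.

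Of the 2 other peroxidases tested, GPX7, of the endoplasmic reticulum, had a change of 0.35 (SE 0.16, adjusted p 0.271) and GPX8 one of -0.24 (SE 0.21, adjusted p 0.603). GPX7 was called with the cow as a random block (adjusted p 0.0868, in a range over all settings from 0.0868 to 0.895), and its change was 0.05 after normexp with the 75th percentile shift. In the supply of cysteine and glutamate, 0 of 5 tested genes were called and the median change was 0.28. BCAT2, the mitochondrial branched-chain aminotransferase that yields glutamate, had a change of -0.58 (SE 0.20, adjusted p 0.158), with -0.96, -0.77 and -0.01 within slides 1, 2 and 3. It was called without cow 5 (-0.78, adjusted p 0.0591), in a range over all settings from 0.0554 to 0.495. SLC3A2, the heavy chain that partners SLC7A11, had a change of 0.36 (SE 0.31), positive on slides 1 and 2 and -0.41 on slide 3. SLC3A2 (0.75, adjusted p 0.0881, in a range over all settings from 0.0881 to 0.972), CBS and SLC1A5 were called higher and BCAT2 lower with the cow block without slide 3.

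Selenoprotein synthesis, on which the peroxidases GPX1, GPX3 and GPX4 depend for their selenocysteine, had 0 of 5 tested genes called. SELENOP, the selenium carrier, had a change of 0.34 (SE 0.17, adjusted p 0.328) and was called higher, by 1 or more probes, without cow 5, with the cow as a random block, and with the cow block without slide 3. SEPHS2, which makes the selenium donor, had a change of -0.08 (SE 0.12). The median change of this list was -0.01.

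Among transporters, 0 of 3 tested genes were called. SLC25A39, the mitochondrial glutathione carrier, was lower in 6 of 6 cows by a mean of -0.29 (SE 0.10, adjusted p 0.166) and was called with the cow as a block (adjusted p 0.0523, in a range over all settings from 0.0267 to 0.694), while ABCC1, an exporter, had a change of 0.27 (SE 0.15). Regulators of the NRF2 and ATF4 responses, which are known to control GCLM and SLC7A11, had 0 of 5 tested genes called and a median of 0.12. MAFF had a change of 0.31 (SE 0.24), from 1.03 on slide 1 to -0.49 on slide 3, and MAFG had one of -0.17 (SE 0.19). MAFF (0.71, adjusted p 0.0913, in a range over all settings from 0.0913 to 0.943) and ATF4 were called higher with the cow block without slide 3.

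**Figure D3:**
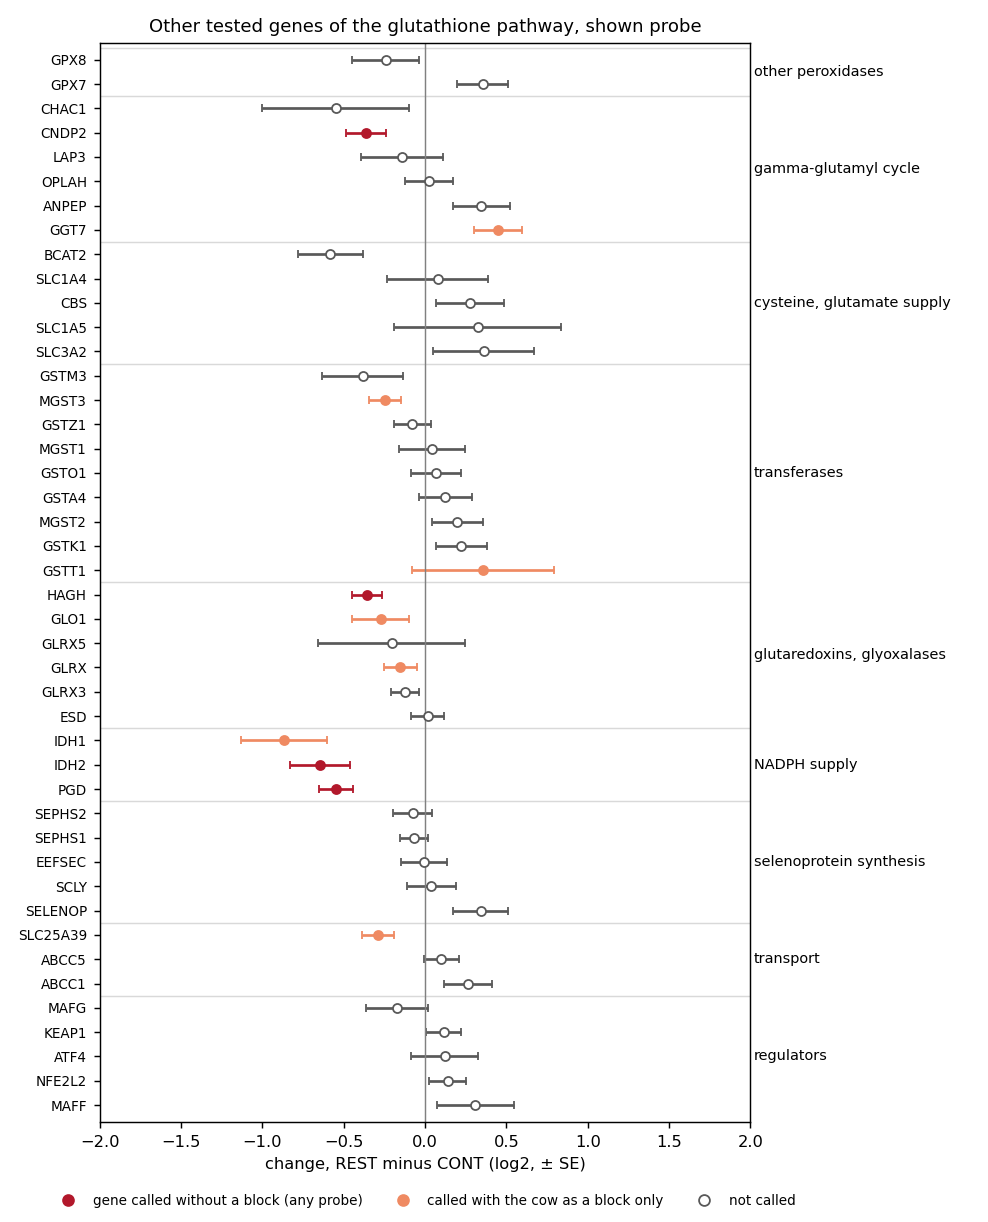
Change (REST minus CONT, log2, ± SE from limma) of the 44 other tested genes of glutathione metabolism, by role, each with its shown probe. Red marks the 4 genes called without a block, orange those called with the cow as a block, and open symbols those not called. All 3 tested genes of NADPH supply lie below 0, and the transferases lie on both sides of it.

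The genes whose signals were most like that of GSS were sought over the 12 arrays among 7930 other genes with a value on every array. Pearson's r is given as a measure of likeness without a p-value, because the arrays share cows and slides and fall into the same groups. The highest were PCYT2 (r = 0.955), an enzyme of phosphatidylethanolamine synthesis, and SLC11A2 (0.942), an importer of divalent metals. SLC2A1 (0.941), the glucose transporter, TRH (0.935), a releasing hormone precursor, and SC5D (0.935), a late enzyme of cholesterol synthesis, followed.

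After the mean of each group was removed, the likeness of these genes to GSS was 0.820 for PCYT2, 0.610 for SLC11A2, 0.773 for SLC2A1, 0.666 for TRH and 0.813 for SC5D. PCYT2 was lower in REST in 6 of 6 cows, from 3.21 ± 0.35 to 2.19 ± 0.30, and its highest CONT arrays were those of cows 6 and 4, as for GSS. Of the other glutathione members, GPX4 came nearest, at rank 12 of 7930 with r = 0.921 (0.612 with group means removed). GSR had r = 0.400, GCLM 0.197, GPX1 -0.06, GGT5 -0.14 and GGT1 -0.31. With group means removed, GPX1 had 0.443, GSR 0.298, GGT5 0.276, GCLM 0.195 and GGT1 0.020.

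**Figure D4:**
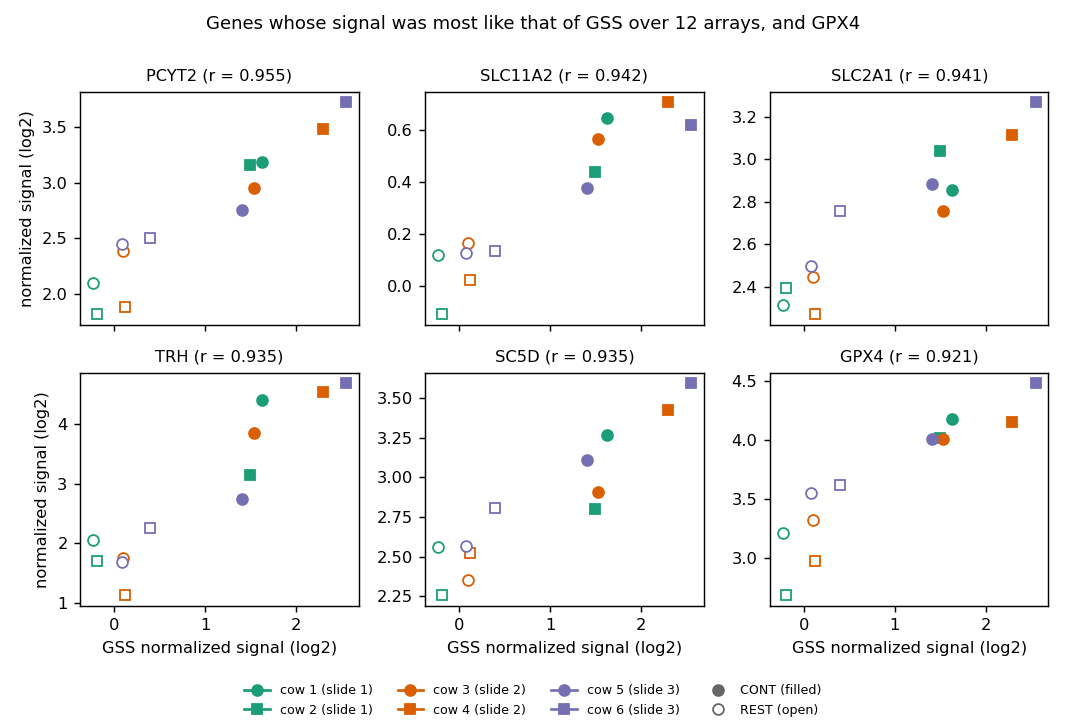
Normalized signal (log2) of the 5 genes most like GSS, and of GPX4, against that of GSS on the same array. Filled symbols are CONT arrays, open symbols REST arrays, colours give the slide, and r is Pearson's coefficient over 12 arrays. In every panel the REST arrays lie at the lower left, and within CONT the arrays of cows 4 and 6 have the highest GSS.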

How the data were processed

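RNA of 12 biopsies (50 ng each) was labelled with Cy3 and hybridized to 12 one-colour bovine arrays, 4 per slide. Per the file headers, the authors extracted spots with Agilent Feature Extraction 11. In the deposited files, values are background-subtracted intensity on a linear scale, with no scaling between arrays, and the deposited series table holds the same intensity values. Groups came from the diet label and cows from the animal label. Probes were named through RefSeq transcripts: 27131 of 43653 received a symbol (62.2%).

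The log2 of the intensity minus the 75th percentile of the array was computed, following the methods of the study, and spots marked as outliers were left out. REST and CONT were compared with limma 3.58.1 (R 4.3.3, two-sided), without a block, over 19406 tested probes, with Benjamini-Hochberg adjustment and a threshold of 0.1. Python 3.11.15, pandas 2.3.3 and matplotlib 3.10.9 made tables and plots, and the script was tested on simulated data. The number of arrays limits the precision.

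The members and gene lists were chosen with earlier results of these data known. A gene is shown by its tested probe of highest mean signal and counted as called if any probe passed. Named genes were the members with a probe, pathway genes called without a block, at most 2 others per list with the largest absolute change, and the 5 genes most like GSS. ACSS2, POLR2E, SBNO2, ARHGAP45, GSTT2, TRPC4AP, EDEM2, GLRX, MGST3, ME1, NNT, CBS, SLC1A5, ATF4 and the cell type markers were named outside that rule, after their values were seen.

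Both arrays of a cow come from the same animal. Their deviations from the group means correlated across probes with r of 0.356 to 0.574, against -0.33 to 0.134 between cows, and the fit with the cow as a block is given where it changed a call. Alternatives were 2 fits after normexp background correction (offset 50, on median signals), quantile and median scaling, the series table, 2 other filters on dim probes, marked spots kept, blocks for cow (fixed, random) and slide, eBayes with trend and robust, an unmoderated test, and each cow left out. Leaving out slide 3, with and without the cow block, was added after seeing the data.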

Additional observations from a re-analysis of the deposited data

Results flagged for a closer look

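The distance of the highest or lowest array from the next, as a share of the range over the 6 arrays of a group, was computed for the 12 tested probes of the members and the shown probes of the 21 named pathway genes, 66 groups of values in all. The ratio exceeded Dixon's 95% critical value for 6 arrays in 8 groups, where chance flags about 1 in 20 (3.3 of 66), and the probes of a gene are not independent.

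GGT5 on the REST array of cow 2 accounted for 3 of the 8, 1 with each probe: -0.17, -1.37 and -0.51, against next lowest values of 0.85, -0.44 and 0.36. The CONT array of cow 5 was low for GSR (0.76, next 1.54) and high for SELENOP (5.80, next 5.07). GPX4 was high in CONT in cow 6 (4.48, next 4.18), HAGH low in REST in cow 2 (2.28, next 2.49) and IDH2 low in REST in cow 4 (-0.71, next 0.10).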

How the results depend on the processing

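GSS and GPX4 kept their direction under all 21 alternatives, and no named pathway gene that was called without a block changed direction. The members called were 2 under 17 of the alternatives and 3 with the cow as a block (fixed or random), without cow 2 (each adding GGT5) and with the block without slide 3 (adding GPX3, which passed the filter through REST alone). The counts over all probes (837), other pathway genes (4) and marker genes (1) moved more, in that order: normexp with the 75th percentile shift gave 201, 0 and 2, no filter on dim probes 95, 0 and 0, and the cow as a fixed block 3105, 11 and 12. The cow as a random block gave 3549, 12 and 12, the slide as a block 1899, 8 and 2, and the block without slide 3 gave 2813, 13 (5 lower, 8 higher) and 6. More probes passed the filter without slide 3 (26905 against 19406), among them those of NNT and GSTT2, so these counts are not over the same genes. Without slide 3 there were 401 probes and 2 pathway genes, and with the median shift 476 and 2. Quantile normalization gave 2 marker genes, and normexp with quantile normalization 3. Leaving out 1 cow gave 194 to 616 probes, 0 to 4 pathway genes and 0 to 1 marker genes, with 205 probes without cow 1, 282 without cow 2, 448 without cow 3, 194 without cow 4 and 556 without cow 6. Pathway genes numbered 0 without cow 4 and 1 without cow 1, 2 or 3, and marker genes 0 without cow 1. At an unadjusted p under 0.05, the pathway counts of 0 became 6 (normexp), 12 (no filter) and 10 (without cow 4) in limma. The cause was not tested. The series text counts 5 cows where the labels name 6, and GPX3, GCLC and the second GSS probe lie near background, GCLC on all 12 arrays.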

Other observations

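In the reference gene table (assembly ARS-UCD2.0, used for gene order only), the protein-coding genes beside GSS were ACSS2 and MYH7B, and GGT7 lay beyond ACSS2. None of the annotated spans of these genes overlapped GSS. ACSS2, which makes acetyl-CoA from acetate, was lower in 6 of 6 cows by -2.17 to -0.70, with a mean of -1.60 (SE 0.25, limma adjusted p 0.00775), while GGT7 was higher in 6 of 6 as given above. On the other side, MYH7B had no probe, and TRPC4AP (-0.28, SE 0.10, adjusted p 0.178) and EDEM2 (-0.23, SE 0.11, adjusted p 0.336) were each lower in 6 of 6 cows and were not called. Near GPX4, the tested neighbours POLR2E (-0.34, SE 0.16, adjusted p 0.299), SBNO2 (0.05, SE 0.14, adjusted p 0.893) and ARHGAP45 (0.27, SE 0.22, adjusted p 0.590) were not called.

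GSTT2, a transferase near background, was higher in REST in 6 of 6 cows. It read -5.64 to -3.94 in CONT and -3.72 to -2.57 in REST. It did not pass the filter over the 12 arrays. With the cow as a block and without slide 3, an alternative chosen after seeing the data, it passed the filter through the REST arrays alone, the group with the higher signal, and was called higher, so nothing is read from the call.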
